A study of Mus musculus with 150 samples.

Results

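Surfactant is the film of lipid and protein that keeps alveoli open, and its genes were described here in mouse lung epithelial cells labelled as lacking p53 or as wild type. The group held 10 genes, chosen by name. Sftpa1, Sftpb, Sftpc and Sftpd encode the surfactant proteins, Abca3, Lamp3 and Slc34a2 encode membrane proteins, Napsa and Ctsh encode proteases, and Lyz2 encodes a lysozyme. All 10 were found among the 24341 rows of the bulk table and among the 31175 genes of the single-cell tables. The series compared progenitor cells of the airway epithelium that had or lacked p53, a stress-response transcription factor whose gene is Trp53. Its knockout bulk group held 3 libraries (replicates 7, 8 and 10) from p53flox/flox mice, and its wild-type bulk group held 3 libraries (replicates 1, 5 and 6) from p53+/+ mice. Both groups also carried Scgb1a1-CreERTM and the reporter Rosa26-mT/mG. The first is a tamoxifen-dependent Cre recombinase driven from the promoter of Scgb1a1, the secretory gene of airway club cells, and the second turns green after recombination, so that the sorted cells were those of the Scgb1a1 lineage and their descendants. The mice were 8 to 12 weeks old, and the cells were sorted as EpCAM-positive and as negative for CD31, CD34 and CD45. The titles name day 30 and the protocol 70 days after tamoxifen, and the genotype label reads p53-/- where the protocol names floxed alleles. The single cells were captured on 1 C1 chip per genotype, a microfluidic device that makes 1 library per cell, with tamoxifen given at 250 mg/kg body weight. Whether these cells were fresh or cultured, and whether their p53 deletion was full or induced, is not clear from the labels, and no animal is named for either chip.

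Surfactant lipid and the hydrophobic proteins SP-B and SP-C are stored in lamellar bodies, the lysosome-related organelles of alveolar type 2 (AT2) cells, and are released by exocytosis. SP-A and SP-D are collectins, soluble lectins of innate defence. In the mouse lung SP-C is known as a product of AT2 cells, whereas SP-A, SP-B and SP-D are known from club cells as well, and lysozyme is known from AT2 cells and from macrophages.

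The sequences just before the start of 4 of these genes are shown. The first pair (Sftpa1 and Sftpb) was detected in most cells low and high in Sftpc. The second pair (Lamp3 and Slc34a2) was detected in a larger share of the cells rich in Sftpc than of those low in it. RefSeq promoters of build GRCm38.p6 were held for 6 of the 10 genes, and those of Sftpc, Sftpd, Napsa and Ctsh were not used here. Each run is the 250 bases before the transcript start, read 5′ to 3′ on the gene's own strand, at chr14:41131538-41131787 (plus strand), chr6:72304360-72304609 (plus strand), chr16:19706366-19706615 (minus strand) and chr5:53049103-53049352 (plus strand). Capitals mark matches to 3 motifs searched on both strands, CTCAAG (the core of the NKX2-1 site), TGTTTAC (FOXA) and TTGCNNAA (C/EBP).
Sftpa1: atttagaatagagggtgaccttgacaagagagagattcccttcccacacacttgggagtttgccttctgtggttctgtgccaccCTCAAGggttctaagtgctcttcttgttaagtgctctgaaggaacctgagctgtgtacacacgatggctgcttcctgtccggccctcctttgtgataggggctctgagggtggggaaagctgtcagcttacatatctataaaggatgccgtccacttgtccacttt
Sftpb: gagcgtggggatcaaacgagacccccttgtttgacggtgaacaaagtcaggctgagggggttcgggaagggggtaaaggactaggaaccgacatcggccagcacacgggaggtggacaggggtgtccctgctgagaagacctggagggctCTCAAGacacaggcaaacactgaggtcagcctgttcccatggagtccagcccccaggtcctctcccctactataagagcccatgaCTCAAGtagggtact
Lamp3: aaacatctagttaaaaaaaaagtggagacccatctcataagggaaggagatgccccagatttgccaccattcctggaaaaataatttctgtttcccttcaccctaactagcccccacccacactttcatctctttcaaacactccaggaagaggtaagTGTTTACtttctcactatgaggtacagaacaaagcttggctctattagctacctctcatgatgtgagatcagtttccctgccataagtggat
Slc34a2: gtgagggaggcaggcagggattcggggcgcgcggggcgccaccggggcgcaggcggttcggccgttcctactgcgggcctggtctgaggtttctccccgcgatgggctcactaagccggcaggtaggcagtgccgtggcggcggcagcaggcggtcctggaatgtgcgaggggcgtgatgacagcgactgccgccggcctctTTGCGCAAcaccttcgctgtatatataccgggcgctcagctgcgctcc
CTCAAG lay 166 to 161 bases before the start of Sftpa1, and 100 to 95 and 15 to 10 bases before that of Sftpb. TGTTTAC lay 92 to 86 bases before the start of Lamp3, and the palindromic TTGCGCAA 48 to 41 bases before that of Slc34a2, where it matches on both strands. None of the 3 motifs was found in the same window of Abca3 or Lyz2. Of 27025 promoters of this length, 13.6% held CTCAAG, 3.09% held TGTTTAC and 9.55% held TTGCNNAA, so that a match is a description of these letters and shows no binding.

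The genes lie on 8 chromosomes of GRCm38, and all are annotated as protein-coding. Sftpa1 (chr14:41131782-41136452, plus strand) and Sftpd (chr14:41172214-41185149, minus strand), the 2 collectin genes, are neighbours with 35761 bases between them, and Sftpc lies on the same chromosome at chr14:70520949-70524081. Lyz2 (chr10:117277331-117282321) lies 5475 bases from Lyz1, a second lysozyme gene whose transcript is 95.96% identical to that of Lyz2 over 1262 aligned bases. Of the stretches of 75 bases (the read length) in Lyz2 transcripts, 5.96% are also found in Lyz1. The share found in other genes was 13.3% for Napsa (in Gm15396), 8.06% for Abca3 (in D330041H03Rik, Abca17 and Naa16), 0.427% for Lamp3 and 0 for the other 6 genes, so values of Lyz2, Napsa and Abca3 are uncertain to the extent that the authors' tools divided shared reads.

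In the bulk libraries, gene levels are given as FPKM, fragments scaled by transcript length and by the mapped fragments of the library. Summed FPKM ran over 551392 to 616289 in knockout libraries and over 437710 to 678870 in wild-type libraries, with 11744 to 11933 genes at an FPKM of at least 1 in each of the 6. The number of reads is unknown from FPKM. Trp53 averaged 8.73 ± 1.21 FPKM in knockout libraries and 20.2 ± 3.09 FPKM in wild-type libraries (SD, n = 3 each), a log2 fold change of -1.12 with an adjusted p of 0.144 by limma. Across 11957 genes tested with limma, 1 passed an adjusted p of 0.05, the microRNA gene Mir6374, named after its values were seen, which was lower in the knockout libraries, whereas 842 genes were higher and 724 lower at an unadjusted p under 0.05. The labels do not tie the libraries to separate animals, so the p-values rest on a spread between libraries that may be technical. In bulk samples, fewer cells of a type and less RNA per cell cannot be told apart.

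Surfactant genes were among the most abundant transcripts of the sorted Scgb1a1 lineage. Among the genes with a listed value, Sftpc ranked between 1 and 3 in the 4 libraries that list it. Lyz2 ranked between 5 and 9 and Sftpa1 between 8 and 11 in the 5 libraries that list each. Marked entries have no rank, so Scgb1a1, marked in all 6 libraries, is left out of each ranking. In knockout libraries the order of FPKM was Sftpc, Lyz2, Sftpa1, then Sftpb and Sftpd with overlapping values, Slc34a2, Ctsh, Napsa, and last Lamp3 and Abca3 with overlapping values. In wild-type libraries the ranges were wider, so that those of Sftpb, Sftpd and Slc34a2 overlapped, as did those of Ctsh, Napsa and Lamp3, and in replicate 1 Slc34a2 stood above Sftpb.

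No surfactant gene that could be tested passed the test between knockout and wild-type bulk libraries, and most had lower values in the knockout libraries. Of the 7 members with a value in all 6 libraries, 0 passed the adjusted p of 0.05 by limma, against 0.00836% of all tested genes, and 2 (Lamp3 and Slc34a2) had an unadjusted p under 0.05 with a lower value in the knockout, against 6.06% of all tested genes. All 7 had a negative log2 fold change (knockout minus wild type), against 48.5% of all tested genes, with a median of -0.43 against 0.01 over all genes. In 3 of the 7 (Lamp3, Slc34a2 and Ctsh) every knockout value was below every wild-type value, against 10.2% of all tested genes, and in 0 was every knockout value above every wild-type value, against 9.04% of all tested genes. Without wild-type replicate 1, when 9 members could be tested, 0 passed, against 0.534% of all tested genes that passed as lower, and with limma's library weights 0 of 7 passed, against 2.17%. With 3 libraries a group, the exact permutation test cannot go below a p of 0.1.

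**Figure D1:**
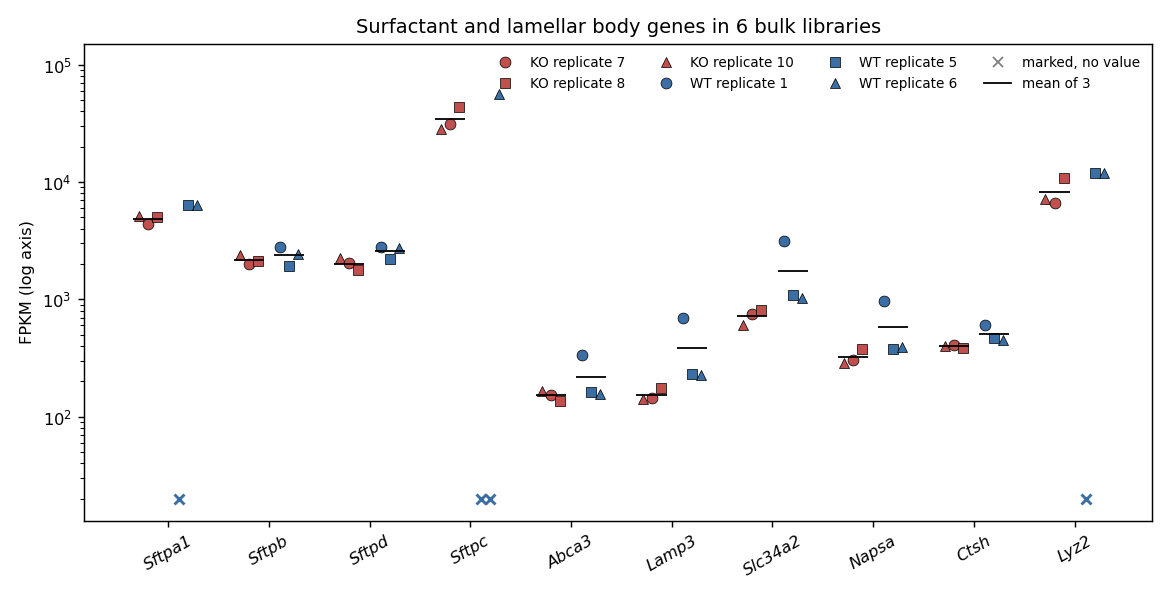
FPKM (log axis) of the 10 genes in the 3 knockout and 3 wild-type bulk libraries, with 1 symbol per replicate, a black line for the mean where all 3 values are listed, and a cross near the axis for an entry that holds a mark in place of a value. Wild-type replicate 1 stands highest for Slc34a2 (3129 FPKM), Lamp3 (692 FPKM), Napsa (978 FPKM) and Abca3 (338 FPKM), and all 4 crosses are in wild-type libraries.

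Among the collectins, Sftpa1 had 4420, 5052 and 5104 FPKM in knockout libraries, against 6384 FPKM in wild-type replicate 5 and 6394 FPKM in wild-type replicate 6, with the entry of wild-type replicate 1 marked as low data. The knockout values were all below the listed wild-type values. With the marked entry taken as missing, so that wild-type replicate 1 was dropped from this fit, its log2 fold change was -0.40 (SE 0.29, adjusted p = 0.611, limma). Sftpd had 2031, 1772 and 2248 FPKM in knockout libraries, against 2789, 2189 and 2722 FPKM in wild-type libraries. The groups overlapped, and the log2 fold change was -0.35 (SE 0.23, adjusted p = 0.563, limma; exact permutation p = 0.2).

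Of the hydrophobic surfactant proteins, Sftpb, which encodes the protein needed to form lamellar bodies and the surface film, had 2021, 2125 and 2400 FPKM in knockout libraries, against 2822, 1930 and 2418 FPKM in wild-type libraries. The groups overlapped, and the log2 fold change was -0.12 (SE 0.24, adjusted p = 0.882, limma; exact permutation p = 0.6). Without wild-type replicate 1 its direction turned, to 0.01. Sftpc had 31282, 43232.5 and 28268 FPKM in knockout libraries, against 56452 FPKM in wild-type replicate 6, the only wild-type library that lists it. The entries of wild-type replicates 1 and 5 were marked, so Sftpc could not be tested in bulk.

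Of the membrane genes, Lamp3 and Slc34a2 had the largest fold changes and standard errors of the 7 genes tested, and Abca3 had smaller ones. Lamp3, which encodes a membrane glycoprotein of the lamellar body, had 145, 175 and 141 FPKM in knockout libraries, against 692, 230 and 225 FPKM in wild-type libraries. Every knockout value was lower, and wild-type replicate 1 stood far above the other 5 libraries. The log2 fold change was -1.102 (SE 0.43, adjusted p = 0.360, limma; exact permutation p = 0.1), and -0.57 without wild-type replicate 1. Slc34a2, which encodes the sodium-phosphate cotransporter of the AT2 cell's apical membrane, had 750, 820 and 599 FPKM in knockout libraries, against 3129, 1094 and 1030 FPKM in wild-type libraries. It showed the same pattern, with a log2 fold change of -1.09 (SE 0.44, adjusted p = 0.372, limma; exact permutation p = 0.1), and -0.57 without wild-type replicate 1. Abca3, which encodes the transporter that moves phospholipid into the lamellar body, had 155, 137 and 165 FPKM in knockout libraries, against 338, 162 and 156 FPKM in wild-type libraries. Its groups overlapped, and its log2 fold change of -0.43 (SE 0.30, adjusted p = 0.594, limma; exact permutation p = 0.4) was -0.07 without wild-type replicate 1.

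Napsa, an aspartic protease that trims pro-SP-B, had 303, 379 and 284 FPKM in knockout libraries, against 978, 378 and 395 FPKM in wild-type libraries. The groups overlapped by the values of 1 library on each side, and the log2 fold change was -0.72 (SE 0.38, adjusted p = 0.456, limma; exact permutation p = 0.2), and -0.27 without wild-type replicate 1. Ctsh, a cysteine protease that also acts on the surfactant proproteins, had 412, 387 and 403 FPKM in knockout libraries, against 601, 468 and 451 FPKM in wild-type libraries. Every knockout value was lower, and the difference did not pass the test (log2 fold change -0.33, SE 0.17, adjusted p = 0.450, limma; exact permutation p = 0.1). Lyz2 had 6605, 10912 and 7176 FPKM in knockout libraries, against 11921 and 12015 FPKM in wild-type replicates 5 and 6, with replicate 1 marked. Every knockout value was below the listed wild-type values, again 3 libraries against 2, for which the share of all genes was not computed. With wild-type replicate 1 dropped from this fit the log2 fold change of Lyz2 was -0.58 (SE 0.38, adjusted p = 0.573, limma). Its neighbour Lyz1 had 151, 640 and 269 FPKM in knockout libraries, against 1538, 949 and 607 FPKM in wild-type libraries (log2 fold change -1.69, SE 0.56, adjusted p = 0.330, limma).

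Much of the spread in the wild-type group came from replicate 1. Its FPKM over the mean of wild-type replicates 5 and 6 was 3.04 for Lamp3, 2.95 for Slc34a2, 2.53 for Napsa, 2.13 for Abca3 and 1.98 for Lyz1, whereas it was 1.31 for Ctsh, 1.30 for Sftpb and 1.14 for Sftpd. The mean of the knockout libraries over the same 2 wild-type libraries was 0.676 for Lamp3, 0.681 for Slc34a2, 0.688 for Lyz2, 0.760 for Sftpa1, 0.821 for Sftpd, 0.832 for Napsa, 0.872 for Ctsh, 0.958 for Abca3 and 1.00 for Sftpb. The 3 genes of the highest ratios in replicate 1 (Lamp3, Slc34a2 and Napsa) were also the 3 with the largest fold changes among the 7 tested, which this library enters. Markers of other cell types moved with this library too. The summed FPKM of 14 other AT2 markers ran over 3110 to 3316 in knockout libraries and over 3952 to 6910 in wild-type libraries, with 6910 in replicate 1, and the sum of 8 club cell markers ran over 69591 to 88461 in knockout libraries and over 32181 to 100755 in wild-type libraries, with 32181 in replicate 1. Their part in the results was not tested.

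Of 13 other AT2 markers tested, all 13 had a negative log2 fold change (median -0.91), against 48.5% of all tested genes, 7 were lower at an unadjusted p under 0.05, against 6.06% of all tested genes, and 0 passed the test. By the mean of both groups, the most abundant of them were Cd74, with 630 ± 103 FPKM in knockout libraries and 1436 ± 647 FPKM in wild-type libraries, and Muc1, with 899 ± 73.5 FPKM in knockout libraries and 1075 ± 34.1 FPKM in wild-type libraries (SD, n = 3 each). Lyz2 and Ctsh are also genes of macrophages. The summed FPKM of 16 macrophage markers ran over 60.96 to 140 in knockout libraries and over 139 to 207 in wild-type libraries; all 15 of those tested had a negative log2 fold change, 10 of them at an unadjusted p under 0.05 and 0 past the test, beside the same shares of all tested genes. The most abundant was Chil3, with 31.2 ± 22.5 FPKM in knockout libraries and 60.3 ± 9.44 FPKM in wild-type libraries (SD, n = 3 each), far below Lyz2. The part of macrophage RNA in these bulk values was not tested. Of the other marker lists, the summed FPKM of 10 ciliated cell markers ran over 463 to 833 in knockout libraries and over 138 to 530 in wild-type libraries, with 530 in replicate 1. Among the 10 ciliated, 8 club, 8 alveolar type 1, 7 leukocyte, 5 fibroblast and 3 endothelial markers tested, 0 passed by limma. At an unadjusted p under 0.05 there were 9 ciliated markers that were higher, and 2 alveolar type 1, 6 leukocyte and 2 endothelial markers that were lower. Of all 11957 tested genes, 842 were higher and 724 lower at that p.

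The marks themselves fell unevenly. The table holds 13 entries marked as low data, 6 of them the Scgb1a1 entries of all 6 libraries. The other 7 were all in wild-type libraries, and 4 of these 7 belong to Sftpa1, Sftpc and Lyz2, 3 of them in replicate 1. Sftpa1, Sftpc and Lyz2 were among the most abundant genes in every library that lists them, and their levels in the marked libraries are not known.

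No gene of the lists around the surfactant pathway passed the test either. Their counts stand beside 48.5% of all tested genes with a negative log2 fold change and 6.06% that were lower at an unadjusted p under 0.05. At that p, 842 of all 11957 tested genes were higher. Of 19 genes of surfactant lipid synthesis, 0 passed the test (5 lower and 1 higher at an unadjusted p under 0.05), 15 had a negative log2 fold change and the median was -0.49. Every knockout value was below every wild-type value in 11 of them, against 10.2% of all tested genes. The smallest p-values of this list were those of Lpin1 and Insig1, regulators of lipid synthesis, and of Pemt, an enzyme of phosphatidylcholine synthesis. Lpin1 averaged 6.50 ± 1.04 FPKM in knockout libraries and 11.7 ± 1.99 FPKM in wild-type libraries, with an adjusted p of 0.276 by limma (SD, n = 3 each). Insig1 averaged 53.9 ± 13.9 FPKM in knockout libraries and 89.5 ± 15.4 FPKM in wild-type libraries (adjusted p = 0.312, limma), and Pemt averaged 5.61 ± 0.484 FPKM in knockout libraries and 3.83 ± 0.329 FPKM in wild-type libraries (adjusted p = 0.308, limma). The summed FPKM of these 19 genes ran over 1755 to 2592 in knockout libraries and over 2674 to 7404 in wild-type libraries, with 7404 in replicate 1.

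Of 21 genes of lamellar body biogenesis and traffic, 0 passed the test (0 at an unadjusted p under 0.05), 14 had a negative log2 fold change and the median was -0.10. The smallest p-values were those of Hps4 (log2 fold change -0.37, adjusted p = 0.389, limma), a subunit of a complex that builds lysosome-related organelles, Nedd4l (-0.26, adjusted p = 0.439), a ubiquitin ligase, and Rab27a (-0.32, adjusted p = 0.454), a small GTPase of granule exocytosis. Of 8 tested genes of surfactant clearance, 0 passed (2 lower at an unadjusted p under 0.05) and 6 had a negative log2 fold change (median -0.34). Lipa, the lysosomal acid lipase, averaged 2.06 ± 0.308 FPKM in knockout libraries and 3.58 ± 0.393 FPKM in wild-type libraries (SD, n = 3 each; adjusted p = 0.307, limma), followed by the lysosomal phospholipase Pla2g15 (log2 fold change -0.35, adjusted p = 0.330, limma) and the lysosomal sterol carrier Npc2 (-0.32, adjusted p = 0.399).

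Of 10 other cathepsins tested, 0 passed (2 lower and 1 higher at an unadjusted p under 0.05) and 6 had a negative log2 fold change (median -0.16). Ctss, which is also on the macrophage list, averaged 6.99 ± 2.80 FPKM in knockout libraries and 18.0 ± 3.90 FPKM in wild-type libraries (SD, n = 3 each; adjusted p = 0.276, limma), Ctso had a log2 fold change of 0.28 (adjusted p = 0.330) and Ctsa one of -0.31 (adjusted p = 0.362). Of 11 transcription factors of AT2 cells tested, 0 passed (2 lower at an unadjusted p under 0.05) and 8 had a negative log2 fold change (median -0.17). Cebpa averaged 31.1 ± 0.620 FPKM in knockout libraries and 45.2 ± 8.64 FPKM in wild-type libraries (SD, n = 3 each; adjusted p = 0.308, limma), and Id2 and Etv5 had log2 fold changes of -0.74 (adjusted p = 0.316) and -1.03 (adjusted p = 0.402).

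Single cells showed which of these genes were found together. Their levels are given as TPM, transcript shares scaled by length that have a fixed sum per library, in 61 kept cells labelled knockout and 66 wild-type cells, and a gene counts as detected at a TPM of at least 1. A kept cell had a median of 3580 detected genes in the knockout chip and of 3130.5 in the wild-type chip. ERCC spike-in RNAs took a median share of 6.28% of a cell's TPM in the knockout chip and of 13.2% in the wild-type chip. Each genotype is 1 chip and 1 table, so genotypes could not be tested against each other in single cells, and the intervals given are for counting error alone. Trp53 was detected in 26.2% of cells labelled knockout and in 6.06% of wild-type cells, which goes against the labels, so that the cells are called knockout here by their label alone. The negative control of the knockout chip is labelled as off-chip, and it held nearly nothing but spike-ins and 2 detected genes. In it Sftpc had 3.22 TPM and Scgb1a1 3.72 TPM, Sftpa1 0.12 TPM and Lyz2 0.08 TPM, and the other members were listed at 0. An off-chip control does not measure RNA carried between wells of a chip, and no control is labelled for the wild-type chip.

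**Figure D2:**
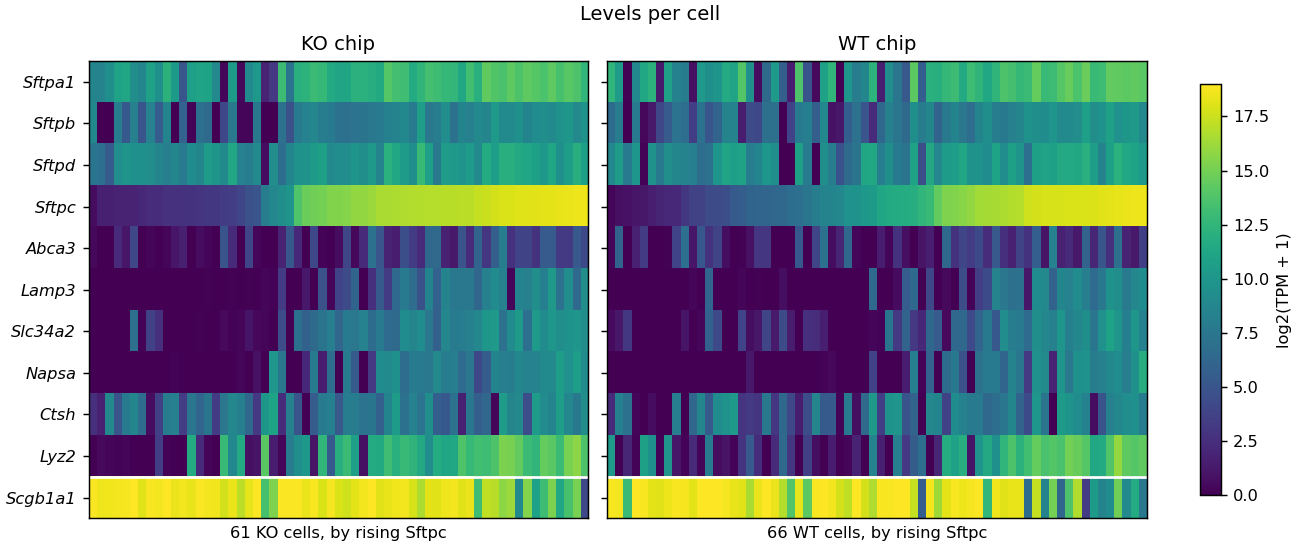
Levels (log2(TPM + 1), colour) of the 10 genes and of Scgb1a1 (rows) in 61 knockout and 66 wild-type cells (columns), ordered within each chip by rising Sftpc. Lamp3 and Napsa are dark wherever Sftpc is at its lowest, whereas Sftpa1 and Sftpd are bright in most columns.

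The collectin and SP-B transcripts were broad. Sftpa1 was detected in 59 of 61 knockout cells and in 61 of 66 wild-type cells. It had a lowest, median and highest TPM of 0.22, 4309 and 21586 in knockout cells, and of 0, 3155 and 26522 in wild-type cells. Sftpd was detected in 60 knockout cells and 62 wild-type cells, with medians of 820 TPM in knockout cells and 814 TPM in wild-type cells. Sftpb was detected in 52 knockout cells and 62 wild-type cells, with medians of 239 TPM in knockout cells and 203 TPM in wild-type cells. Over all kept cells Ctsh was nearly as broad, detected in 58 knockout cells and 55 wild-type cells. Its medians were 171 TPM in knockout cells and 104 TPM in wild-type cells. In wild-type cells its detection differed by the level of Sftpc, as given below. In contrast to bulk, where Sftpb and Sftpd had overlapping FPKM, the mean TPM of Sftpb was 318 in knockout cells and 336 in wild-type cells, while that of Sftpd was 1301 in knockout cells and 1148 in wild-type cells.

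Sftpc spanned nearly the whole range of the assay. Its lowest, median and highest TPM were 0.58, 43142 and 382166 in knockout cells, and 0.17, 1860 and 374068 in wild-type cells. Of knockout cells, 17 lay under 10 TPM, 8 between 10 and 10000 TPM and 36 at 10000 TPM or more, against 10, 30 and 26 wild-type cells. Of these, 0 knockout cells and 9 wild-type cells lay between 1000 and 10000 TPM. Since the off-chip negative control of the knockout chip listed 3.22 TPM, values under 10 TPM were not read as expression, and detection at 1 TPM says little for Sftpc. Spike-ins took 99.998% of TPM in that control, against a median of 6.28% in knockout cells. The TPM of the control and of cells are thus on unlike scales, and the cut of 10 TPM is a convention.

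Lamp3 and Napsa were detected in the smallest shares of cells. Lamp3 was detected in 52.5% of knockout cells (95% exact binomial interval 39.3% to 65.4%) and in 40.9% of wild-type cells (28.95% to 53.7%). Napsa was detected in 57.4% of knockout cells (44.1% to 70.0%) and in 43.9% of wild-type cells (31.7% to 56.7%). Slc34a2 was detected in 67.2% of knockout cells and 68.2% of wild-type cells, with medians of 103 TPM in knockout cells and 10.8 TPM in wild-type cells. Lyz2 was detected in 73.8% of knockout cells and 74.2% of wild-type cells, with medians of 2861 TPM in knockout cells and 70.2 TPM in wild-type cells. Abca3 had the lowest mean of the group per length, 19.04 TPM in knockout cells and 21.5 TPM in wild-type cells. It was detected in 67.2% of knockout cells and 68.2% of wild-type cells. This share depended on the detection limit, with 83.6% of knockout cells and 84.8% of wild-type cells above 0 TPM and 34.4% of knockout cells and 30.3% of wild-type cells at 10 TPM or more.

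**Figure D3:**
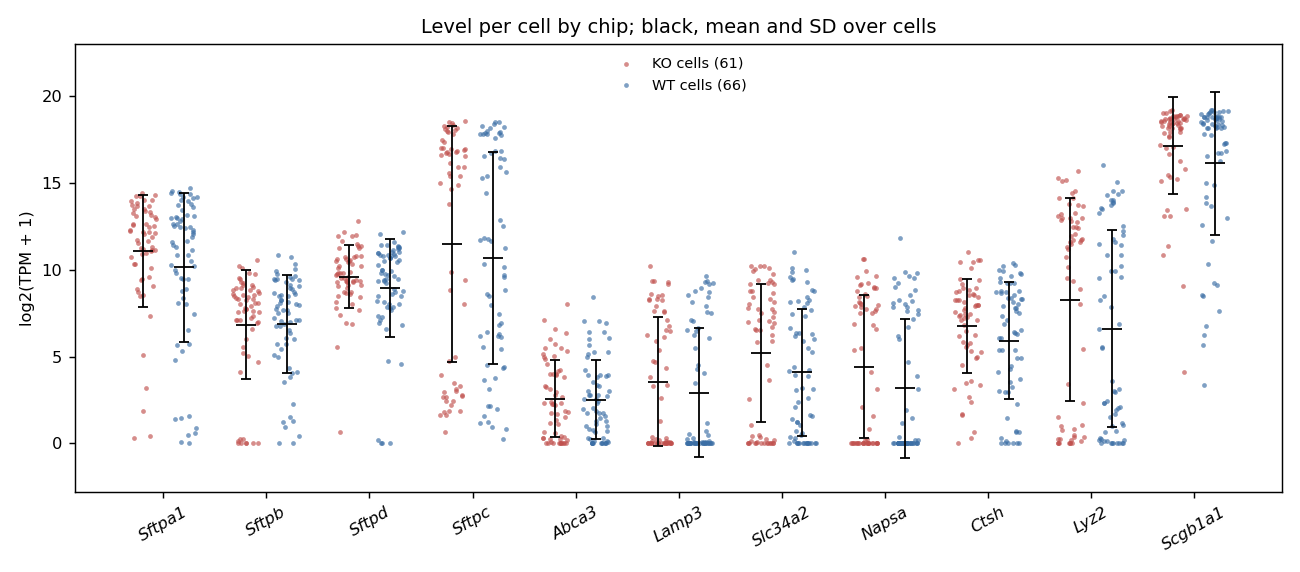
Level per cell (log2(TPM + 1)) of the 10 genes and of Scgb1a1 in 61 knockout cells (left of each pair) and 66 wild-type cells, with the mean and SD over cells in black. The clouds of the chips overlap for every gene. Lamp3, Napsa, Slc34a2 and Lyz2 have many cells near 0 beside many cells higher on the axis, and Sftpc spreads from low to high values.

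**Figure D4:**
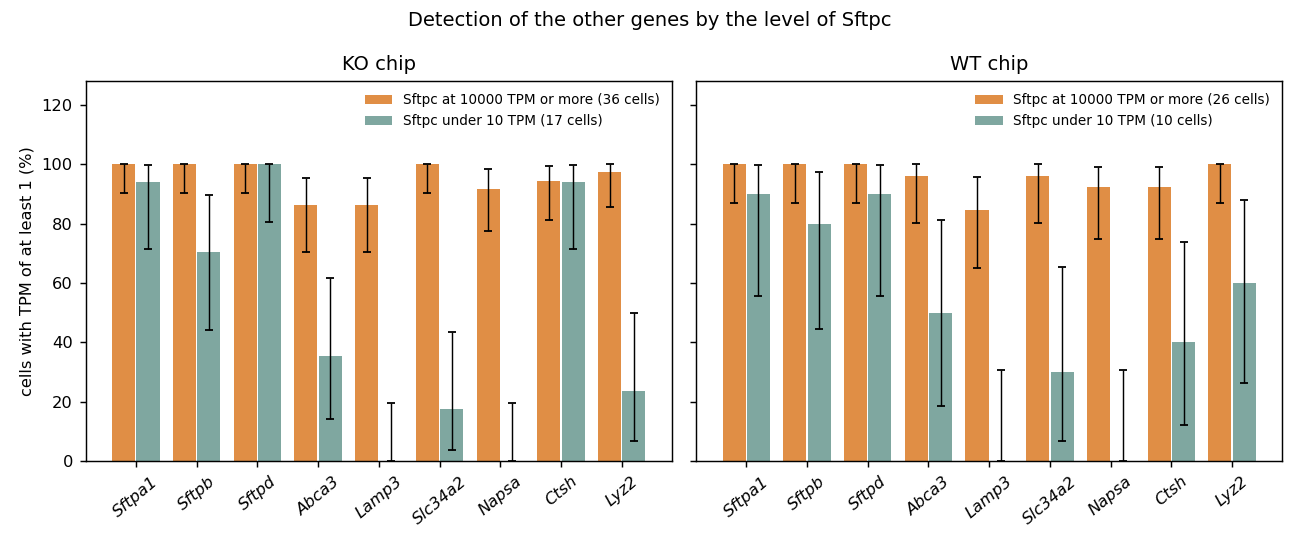
Percentage of cells with a TPM of at least 1 for the other 9 genes, in cells with Sftpc at 10000 TPM or more and in cells with Sftpc under 10 TPM, for the knockout chip (left) and the wild-type chip, with 95% exact binomial intervals. Lamp3 and Napsa were detected in 0 of the cells under 10 TPM, while Sftpa1 and Sftpd were detected in at least 90% of the cells of both ranges.

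Lamp3 and Napsa were not detected in the cells lowest in Sftpc. In cells with Sftpc at 10000 TPM or more, Lamp3 was detected in 31 of 36 knockout cells and 22 of 26 wild-type cells, and Napsa in 33 of 36 knockout cells and 24 of 26 wild-type cells. In cells with Sftpc under 10 TPM, Lamp3 and Napsa were each detected in 0 of 17 knockout cells and in 0 of 10 wild-type cells, which by the exact binomial interval allows a share of up to 19.5% in knockout cells and up to 30.8% in wild-type cells. Slc34a2 was detected in all 36 knockout cells and in 25 of 26 wild-type cells of the high range, against 3 of 17 knockout cells and 3 of 10 wild-type cells under 10 TPM of Sftpc. Lyz2 was detected in 35 of 36 knockout cells and 26 of 26 wild-type cells of the high range, against 4 of 17 knockout cells and 6 of 10 wild-type cells of the low range. Abca3 was detected in 31 of 36 knockout cells and 25 of 26 wild-type cells of the high range, against 6 of 17 knockout cells and 5 of 10 wild-type cells of the low range. Ctsh was detected in 34 of 36 knockout cells and 24 of 26 wild-type cells of the high range. In the low range Ctsh was detected in 16 of 17 knockout cells but in 4 of 10 wild-type cells. With Sftpc at 10 to 10000 TPM, Lamp3 was detected in 1 of 8 knockout cells and 5 of 30 wild-type cells. In that range Napsa was detected in 2 of 8 and 5 of 30, and Slc34a2 in 2 of 8 and 17 of 30. Lyz2 was detected there in 6 of 8 and 17 of 30, Abca3 in 4 of 8 and 15 of 30, and Ctsh in 8 of 8 and 27 of 30.

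SP-A, SP-B and SP-D transcripts were present in cells high in Sftpc and, at lower medians, in cells low in it. In cells with Sftpc at 10000 TPM or more, the median of Sftpa1 was 8170 TPM in 36 knockout cells and 8838 TPM in 26 wild-type cells. The median of Sftpd there was 1461 TPM in knockout cells and 1781 TPM in wild-type cells, and that of Sftpb 381 TPM in knockout cells and 588 TPM in wild-type cells. In cells with Sftpc under 10 TPM, the median of Sftpa1 was 753 TPM in 17 knockout cells and 972 TPM in 10 wild-type cells. That of Sftpd was 549 TPM in knockout cells and 444 TPM in wild-type cells, and that of Sftpb 45.4 TPM in knockout cells and 74.8 TPM in wild-type cells. The medians of all 3 were thus higher where Sftpc was high. In the low range they stood far above the off-chip negative control, which listed 0.12 TPM of Sftpa1 and 0 of Sftpb and Sftpd. Nearly all TPM of that control were spike-ins, so the scales are unlike. RNA carried between wells of a chip is not measured by that control. The median number of detected genes was 3530 in the high range and 3580 in the low range of the knockout chip, and 3412.5 in the high range and 2864 in the low range of the wild-type chip.

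Cells of 1 chip share their library run and are not replicates, so the following correlations are descriptions. Across cells, the Pearson r of log2(TPM + 1) between each gene and the mean of the other 9 was highest for Sftpc (0.92 in 61 knockout cells and 0.82 in 66 wild-type cells), Slc34a2 (0.90 in knockout cells and 0.85 in wild-type cells), Lamp3 (0.86 in knockout cells and 0.85 in wild-type cells) and Napsa (0.82 in knockout cells and 0.90 in wild-type cells). It was 0.73 for Lyz2 in each chip, 0.66 for Sftpb and 0.63 for Sftpa1 in knockout cells, and 0.68 for Sftpb and 0.67 for Sftpa1 in wild-type cells. Sftpd had 0.57 in knockout cells and 0.52 in wild-type cells, Abca3 0.58 in knockout cells and 0.27 in wild-type cells, and Ctsh, the loosest in the knockout chip, 0.22 in knockout cells and 0.41 in wild-type cells. Within the cells with Sftpc at 10000 TPM or more, r remained at 0.70 for Lamp3 and 0.67 for Napsa in 36 knockout cells. In 26 wild-type cells it was 0.84 for Lamp3 and 0.76 for Napsa. Ctsh had 0.30 in these knockout cells and 0.19 in these wild-type cells, and Abca3 had 0.36 and -0.001.

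Beside Scgb1a1, the club cell gene that marks the lineage, the surfactant genes ranged from dominant to trace. Scgb1a1 was detected in every kept cell, with medians of 332786 TPM in knockout cells and 307204 TPM in wild-type cells. Sftpc exceeded Scgb1a1 in 15 of 61 knockout cells (24.6%, 95% exact binomial interval 14.5% to 37.3%) and in 17 of 66 wild-type cells (25.8%, 15.8% to 38.01%). Only 3 knockout cells and 1 wild-type cell lay within 1 log2 unit of equal levels. Both transcripts were at 10000 TPM or more in 30 knockout cells and 15 wild-type cells, Sftpc alone in 6 knockout cells and 11 wild-type cells, and Scgb1a1 alone in 25 knockout cells and 38 wild-type cells. In these cells with both at 10000 TPM or more, Lamp3 was detected in 25 of 30 knockout cells and 11 of 15 wild-type cells, and Napsa in 27 of 30 knockout cells and 13 of 15 wild-type cells. Whether a well held more than 1 cell was not tested here.

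**Figure D5:**
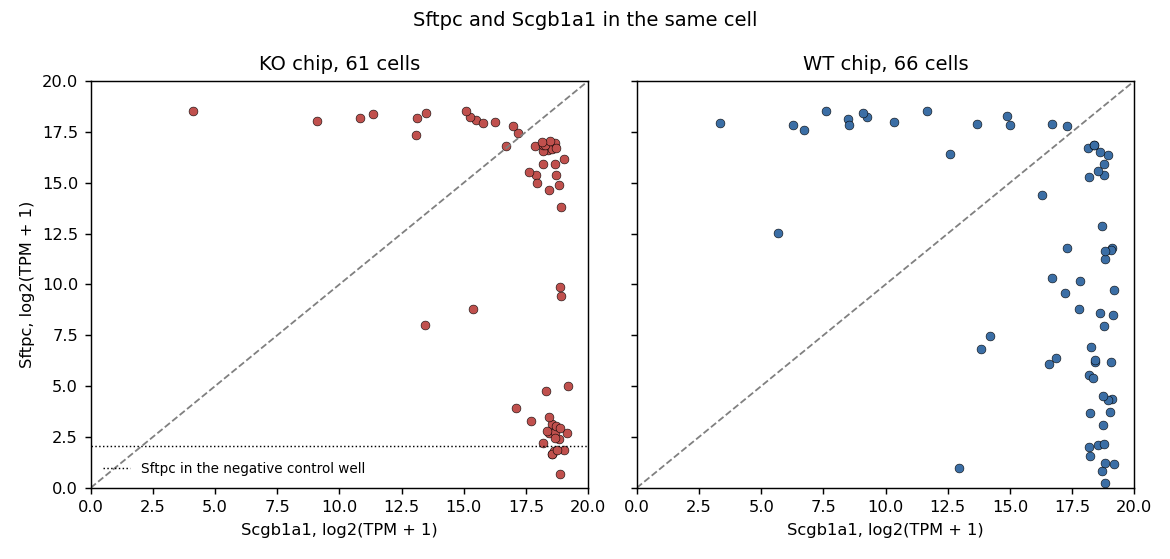
Sftpc against Scgb1a1 (log2(TPM + 1)) in each of 61 knockout cells (left) and 66 wild-type cells, with a dashed line at equal levels and a dotted line at the Sftpc level of the off-chip negative control of the knockout chip (3.22 TPM). Of the knockout cells, 15 lie above the dashed line, against 17 of the wild-type cells.

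Across cells, r with Scgb1a1 was negative for all 10 genes in both chips. It was -0.43 for Sftpc, -0.52 for Lamp3 and -0.48 for Lyz2 in knockout cells, and -0.53 for Sftpc, -0.50 for Lamp3 and -0.54 for Lyz2 in wild-type cells, against -0.14 for Sftpd in knockout cells and -0.10 in wild-type cells. TPM values of a cell share a fixed sum, so 2 abundant transcripts cannot both take most of it. Together the 10 genes took a median of 5.28% of a knockout cell's gene TPM and 0.819% of a wild-type cell's, with at most 50.7% in a knockout cell and 61.2% in a wild-type cell. Sftpc was the most abundant gene in 15 knockout cells and 16 wild-type cells, and Scgb1a1 in 44 knockout cells and 46 wild-type cells. The cells with more Sftpc than Scgb1a1 had a higher share of spike-ins, with a median of 15.4% in knockout cells and 22.1% in wild-type cells, against 5.68% in the other knockout cells and 11.04% in the other wild-type cells, and its part in their levels was not tested.

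All 10 genes were detected in 26 knockout cells and in 20 wild-type cells, with a median of 9 per knockout cell and 7 per wild-type cell, and every kept cell had at least 4. The 8 genes whose levels followed the mean of the 10 most closely, out of 4533 genes detected in at least 20% of the cells of each chip, were Hc (mean r over the chips 0.84), Scd1 (0.81), Lpcat1 (0.80), Cd74 (0.80), Rnase4 (0.79), Etv5 (0.75), Cldn18 (0.75) and S100g (0.73). Scd1 encodes a fatty acid desaturase, and Lpcat1 an acyltransferase that makes the saturated phosphatidylcholine of surfactant. Hc, the complement factor C5, Cd74, the invariant chain of MHC class II, and S100g, a calcium-binding protein, were on the list of other AT2 markers, whereas Cldn18, a claudin, was on the list of alveolar type 1 markers. Not every gene of these 2 lists followed the surfactant genes. Muc1, of the AT2 list, had an r of -0.28 in knockout cells and 0.13 in wild-type cells. Pdpn, of the alveolar type 1 list, had -0.51 in knockout cells and -0.35 in wild-type cells. Lpcat1 was detected in 65.6% of knockout cells and 45.5% of wild-type cells, and Scd1 in 83.6% of knockout cells and 72.7% of wild-type cells.

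Between the chips, 9 of the 10 genes had a higher mean log2(TPM + 1) in knockout cells, against 76.1% of all 9486 genes detected in at least 10% of cells. The median difference (knockout minus wild type) was 0.83 for the 10 genes and 0.25 for all genes, and 0 of the 10 reached a difference of 2, in either direction, against 0.559% of all genes that were higher and 0.0316% that were lower by that much. Lyz2 averaged 8.28 ± 5.87 in knockout cells and 6.61 ± 5.65 in wild-type cells (SD over 61 and 66 cells), a difference of 1.67. Napsa had a difference of 1.22, Slc34a2 of 1.102, Sftpa1 of 0.96, Ctsh of 0.84, Sftpc of 0.83, Sftpd of 0.65, Lamp3 of 0.63, Abca3 of 0.05 and Sftpb of -0.05. The club cell markers, among them Scgb1a1, moved in the same direction, with 10 of 10 positive and a median of 1.19, and Scgb1a1 itself had a difference of 1.02. Each member's difference was smaller than the SD over cells of its gene in either chip. On the scale of mean TPM the ratios of knockout over wild-type cells ran from 0.886 for Abca3 to 1.47 for Slc34a2. Sftpd, Lamp3, Slc34a2, Napsa and Ctsh had negative log2 fold changes in bulk and positive differences in cells. The same held for Sftpa1 and Lyz2 with their marked bulk entries taken as missing (log2 fold changes of -0.40 and -0.58). For Abca3 the direction in cells depended on the scale, with a difference of 0.05 on the log2 scale and a ratio of mean TPM of 0.886. Whether the assays differ was not tested. The chips also differed in spike-in share, and its part in these differences was not tested. With TPM rescaled without the spike-ins, the differences of Lyz2, Napsa, Slc34a2, Sftpa1, Sftpc, Sftpd and Lamp3 kept their direction and moved by at most 0.5. With each cell's values centred, the difference became -0.54 for Abca3, -0.64 for Sftpb and 0.04 for Lamp3.

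In the pathway lists, 17 of the 17 lipid synthesis genes detected in at least 10% of cells had a positive difference, 13 of 16 of lamellar body traffic, 3 of 3 of clearance, 7 of 7 of the other cathepsins and 9 of 11 of the transcription factors, against 76.1% of all genes. Of these lists, 1 gene passed a difference of 2, against 0.559% of all genes that were higher and 0.0316% that were lower by that much. Of the marker lists, 2 of 10 club cell markers and 1 of 9 alveolar type 1 markers were higher by as much. The gene of the pathway lists was Lamp1, which encodes an abundant lysosomal membrane protein. It averaged 4.97 ± 2.78 in knockout cells and 2.50 ± 2.76 in wild-type cells (log2(TPM + 1), SD over 61 and 66 cells). In bulk Lamp1 had 346 ± 9.92 FPKM in knockout libraries and 392 ± 22.7 FPKM in wild-type libraries (SD, n = 3 each; adjusted p = 0.616, limma). Lamp1 and Lamp3 encode related proteins, and r of Lamp1 with the mean of the 10 surfactant genes was 0.00 in knockout cells and 0.19 in wild-type cells.

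Most cells high in Lyz2 were also high in Sftpc. Of the cells with Lyz2 at 1000 TPM or more (35 in the knockout chip and 24 in the wild-type chip), 31 knockout cells and 22 wild-type cells also had Sftpc at 10000 TPM or more. Cd68 was detected in 5 of these knockout cells and 3 of these wild-type cells, and Tyrobp and Csf1r in 1 knockout cell each and 0 wild-type cells. Ptprc and Marco, a leukocyte and an alveolar macrophage gene, were detected in 0 of all kept cells, so their absence does not set the cells high in Lyz2 apart. Over all kept cells the summed TPM of the 16 macrophage markers had a median of 0 in each chip, with highest values of 26309 in knockout cells and 247 in wild-type cells, and 5 of the 16 were at 0 in all kept cells. In the knockout chip 2 cells held 10 and 8 of the 16 macrophage markers, while no other knockout cell had more than 1 and no wild-type cell more than 2. The first of them had 18282 TPM of Lyz2, 1087 TPM of Ctsh and 258 TPM of Sftpc beside 9080 TPM of C1qb and 11170 TPM of Scgb1a1, and Lamp3, Slc34a2, Abca3 and Napsa were under 1 TPM in it. The second had 721 TPM of Lyz2 and 14290 TPM of Sftpc beside 580 TPM of Fcer1g. Without these 2 cells the difference was 1.55 for Lyz2, 0.82 for Ctsh and 0.05 for Sftpb, so that all 10 genes then had a positive difference. Lyz1 was detected in 11.5% of knockout cells and 16.7% of wild-type cells.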

How the data were processed

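Bulk libraries were made with a low-input kit and single-cell libraries on C1 chips, both sequenced as 75-base single reads, per the labels' protocols. The deposited bulk table holds FPKM values on build mm10, for which the submitters' processing notes name TopHat, Bowtie2 and Cufflinks; 20 of its entries hold a mark (13 low data, 7 failed) in place of a value. The deposited single-cell tables, 1 per chip, hold TPM values from RSEM 1.2.20 and Bowtie 1.1.1, per the submitters' processing notes. Neither unit keeps read counts or depth.

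Members and lists were chosen with earlier results of these data known. Bulk values were fitted as log2(FPKM + 1) by the R package limma 3.58.1 under R 4.3.3 (trend and robust, two-sided, Benjamini-Hochberg over all tested genes, threshold 0.05), for genes that reached an FPKM of 1 in 3 or more libraries and had no marked entry. A fold change on this scale understates that of low genes. On simulated data with 11817 genes, the fit recovered 62 of 100 changes of 1 and 88 of 97 changes of 2 on the log2 scale, with 8 false calls. Each gene was drawn independently there, with no difference shared by the genes of a library, so the recovery in the real libraries may be lower. Cells in which under 1000 genes reached a TPM of 1 (3 labelled knockout, 6 wild type) or with a debris or valve remark (3 and 1) were left out, and 2 samples labelled knockout were not analysed here, as no column matched their labels. Cells were described by mean log2(TPM + 1) with SD and by shares with exact binomial intervals at 95%. Besides the members, the genes named are Scgb1a1, Trp53, Lyz1 and the 8 most like the members. Also named are up to 3 of smallest bulk p per pathway list and up to 2 of highest level per marker list. Lamp1, Pdpn and the macrophage genes shown in single cells were named after their values were seen. Gene positions are from GENCODE vM21 (GRCm38) and promoters from RefSeq (GRCm38.p6). Wells with doublets or debris had been inspected by the submitters, per the labels' protocols, and no doublet caller was run. Values were computed with Python 3.11.15, pandas 2.3.3 and scipy 1.17.1.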

Additional observations from a re-analysis of the deposited data

Results flagged for a closer look

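Sftpc appeared in samples that enter no comparison. A well of the knockout chip with a remark on its content (replicate 3 of 3 such wells) had 51141.3 TPM of Sftpc, against 3.22 TPM in the off-chip negative control. Nearly all TPM of that control were spike-ins, so the scales are unlike. The off-chip positive control of the knockout chip had 16709.13 TPM of Sftpc beside 491987 TPM of Scgb1a1.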

How the results depend on the processing

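No paired analysis was possible because the replicate numbers of the knockout (7, 8, 10) and wild-type (1, 5, 6) libraries do not overlap. The count of bulk genes past the threshold, 1 in the fit reported, was 2 with a pseudocount of 0.1, 913 with limma's library weights, and 0 to 407 with 1 library left out. It was 407 (344 higher and 63 lower) without wild-type replicate 1, 3 without knockout replicate 8, 2 without knockout replicate 10 and 0 without wild-type replicate 5 or 6 (limma, with 524 higher and 638 lower, and 684 higher and 751 lower, at an unadjusted p under 0.05). The members past the threshold stayed at 0 in all of these fits, with 0.534% of all genes lower without wild-type replicate 1 and 2.17% lower with library weights, and the smallest adjusted p of a member was 0.0748. Of 98 member fold changes under alternatives 96 kept their direction and side of the threshold; that of Sftpb was -0.26 to 0.0107 with 1 library left out, and turned to 0.0890 with library weights and to 0.0107 without wild-type replicate 1, and the cause was not tested. Of 80 single-cell differences under alternatives, 64 kept their direction and moved by at most 0.5 on the log2 scale, and 16, of which 10 with each cell centred, turned or moved by more. Of 40 shares of cells with a member, at a detection limit above 0 or of 10 TPM, 22 stayed within the exact binomial interval of the share reported and 18 did not. The alternative without the 2 knockout cells with macrophage markers was chosen after seeing the data. FPKM and TPM hold no counts, so depth limits could not be set per gene.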

Other observations

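Of the 4533 genes ranked by their r with the mean of the 10 surfactant genes, Aldh1a1 (an aldehyde dehydrogenase, mean r over the chips -0.59) and Cyp2f2 (a cytochrome P450 of club cells, -0.52) were among the 4 lowest, with Pdcd4 (-0.55) and Pgrmc1 (-0.53), and 25 genes had a mean r of at least 0.6. These genes were named after their values were seen.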
